A study of Mus musculus domesticus with 12 samples.

Results

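The genes described here are 10 mouse genes of granulocyte precursors: Mpo, Elane, Prtn3, Ctsg, Cebpa, Cebpe, Gfi1, Csf3r, Ms4a3 and Ltf. They were chosen by name, with earlier results of these data known. All 10 were found among the 55385 gene identifiers of the tables and passed the filter on low counts. Granulocytes are white blood cells whose precursors fill granules with antimicrobial proteins. Primary granules are made at the promyelocyte stage and carry myeloperoxidase and a family of serine proteases, while secondary granules are made later and carry lactoferrin. The transcription factors Cebpa, Gfi1 and Cebpe act along this path, and the receptor Csf3r receives the growth factor G-CSF. In the fetal liver, precursors of granulocytes and of red cells arise from shared progenitors.

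The libraries came from C57BL/6J mouse fetal liver at embryonic stage E14.5, in 3 groups of 4 that differed in the target of a retroviral short hairpin RNA (shRNA). The targets were Dis3 (shDis3), Exosc10 (shExosc10) and, as the control, firefly luciferase (shLuc). Dis3 and Exosc10 are the catalytic subunits of the RNA exosome, a complex that trims and degrades RNA, and the study asked how erythroid precursors depend on each. In every group, cells that carried lineage markers were first removed, the rest were infected, and the cultures grew for 2 days under erythroid expansion conditions. Infected cells, marked by GFP, that lacked Ter119 and had intermediate or positive CD71 were then sorted as erythroid progenitors and proerythroblasts. The labels do not say whether replicates came from separate cultures or litters, so each p-value reflects only how these libraries vary, which may be technical. Each library is RNA of a cell pool: fewer cells of a type and less RNA per cell cannot be told apart.

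The libraries held 14936178 to 32397192 counts each. Dis3 measured 24.74 to 52.37 CPM (counts scaled to library size with normalisation factors) in the shDis3 libraries, against 113.4 to 160.5 CPM in the shLuc libraries. Exosc10 measured 18.88 to 30.77 CPM in the shExosc10 libraries and 85.42 to 113.1 CPM in the shLuc libraries, so both targets were low wherever the labels place the matching shRNA. A set of 16 erythroid markers summed to 1083 to 4911 TPM (transcript abundance scaled for library size and transcript length) per library. Across genes, the highest correlations between groups were r = 0.992 for shDis3 replicate 3 and shLuc replicate 4, and r = 0.989 for shDis3 replicate 4 and shExosc10 replicate 1. These are called the look-alike pairs. Within groups the highest was 0.99, for shExosc10 replicates 2 and 3. Other libraries were also nearest to one of another group, shExosc10 replicate 2. For shLuc replicate 2 this was at 0.986, against 0.985 with shLuc replicate 3. For shDis3 replicate 2 it was at 0.973, against 0.972 with shDis3 replicate 1. The 4 libraries of the look-alike pairs had a count for 17981 to 18791 genes, and the other 8 for 20299 to 35190. The calls and fold changes of the members are given with and without them, while levels, likeness, and the sums and medians of other lists include all 12 libraries. The 4 were picked for this likeness in these same data, and p-values of fits without them take no account of that choice.

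The serine proteases of the primary granule are related in sequence, so the stretch around their active-site serine is shown to tell them apart. The capitals mark the 6 codons of the conserved motif that holds the catalytic serine, and lower case gives the coding bases that follow in exon 5. The sequences are from GENCODE M21 transcripts on build GRCm38, read 5′ to 3′ on the coding strand, at chr10:79887917-79887976 (plus strand) for Elane, chr10:79882818-79882877 (plus strand) for Prtn3 and chr14:56100091-56100150 (minus strand) for Ctsg.
Elane: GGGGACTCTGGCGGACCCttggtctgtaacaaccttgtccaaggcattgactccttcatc
Prtn3: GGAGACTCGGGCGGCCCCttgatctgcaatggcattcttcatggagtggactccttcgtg
Ctsg: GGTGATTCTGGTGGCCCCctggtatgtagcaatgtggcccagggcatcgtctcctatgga
Elane and Prtn3 matched at 43 of these 60 bases, Elane and Ctsg at 41, and Prtn3 and Ctsg at 33. Over the aligned coding sequences, identity was 67.3% for Elane and Prtn3, 65.7% for Elane and Ctsg and 68.5% for Prtn3 and Ctsg. The longest identical run between any of them was 17 bases, and none of the 50-base stretches of Elane or Ctsg occurred in a transcript of another gene. Prtn3 shared 110 of its 1706 stretches with Plppr3, its neighbour, and none of them was coding. Cebpe, Ms4a3 and Ltf shared no stretch, Cebpa shared 3 with Gm45091 and Gfi1 shared 33 with A430072P03Rik. Mpo shared 332 of 3508 with 30 genes, and 323 of these were coding. Csf3r shared 395 of 3676 with 402 genes, and 320 of these were coding. A part of the reads of Mpo and Csf3r could thus have been divided with other genes, although every count of the 10 genes in the deposited tables was whole.

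The 4 primary granule genes were among the abundant transcripts of these erythroid-sorted pools. Over the 12 libraries Mpo (chromosome 11, 87793581 to 87804413, plus strand), the peroxidase of primary granules, averaged 698.8 ± 600.4 TPM (SD, n = 12) and ranked 175 among all genes. Elane (chromosome 10, 79886247 to 79888215, plus strand), neutrophil elastase, averaged 188.6 ± 123.6 TPM. Prtn3 (chromosome 10, 79874476 to 79883174, plus strand), proteinase 3, averaged 134.6 ± 85.94 TPM, and Ctsg (chromosome 14, 56099881 to 56102574, minus strand), cathepsin G, averaged 91.32 ± 53.43 TPM. The other members were less abundant: Ms4a3 (chromosome 19, 11629496 to 11640851, minus strand) averaged 32.97 ± 18.48 TPM and the remaining members 3.84 to 9.86 TPM.

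In this order of TPM levels, Mpo lay above Elane in 12 of 12 libraries, Ctsg above Ms4a3 in 12, and Ms4a3 above Cebpa in 12. Prtn3 lay above Ctsg in 11 libraries, and Elane above Prtn3 in 9. The lower end of the order was not settled: Cebpa lay above Csf3r in 8 libraries, Csf3r above Cebpe in 8, Cebpe above Gfi1 in 11 and Gfi1 above Ltf in 7. The 10 genes summed to 2644, 1643, 2080 and 891.7 TPM in shDis3 replicates 1 to 4, to 969.0, 680.9, 602.8 and 620.8 TPM in shExosc10, and to 241.9, 551.1, 509.4 and 2719 TPM in shLuc. The highest sum and the 3 lowest sums were therefore all in shLuc. Mpo alone made up 48.3% to 69.2% of the sum.

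Mpo measured 3746, 2496, 2820 and 1558 CPM in shDis3 replicates 1 to 4, 1497, 1109, 819.1 and 868.8 CPM in shExosc10, and 582.8, 772.5, 1010 and 3630 CPM in shLuc. All 4 shDis3 libraries lay above all 4 shExosc10 libraries, and above shLuc replicates 1 to 3, while shLuc replicate 4 lay above 3 of the 4 shDis3 libraries. The log2 fold change was 0.82 (SE 0.48) in shDis3 against shLuc, -0.48 (SE 0.47) in shExosc10 against shLuc and 1.31 (SE 0.48) in shDis3 against shExosc10.

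Elane measured 363.1, 315.0, 125.5 and 105.4 CPM in shDis3 replicates 1 to 4, 115.1, 158.2, 119.4 and 129.6 CPM in shExosc10, and 84.57, 97.74, 152.4 and 200.4 CPM in shLuc. Only shDis3 replicates 1 and 2 stood above every other library, and replicates 3 and 4 lay within the range of the shLuc libraries. The log2 fold changes were 0.76 (SE 0.37) in shDis3 against shLuc, -0.04 (SE 0.37) in shExosc10 against shLuc and 0.80 (SE 0.37) in shDis3 against shExosc10.

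Prtn3, whose gene lies 3072 bases from Elane on the same strand, measured 199.4, 191.3, 123.6 and 161.9 CPM in shDis3, 136.1, 70.64, 57.61 and 63.6 CPM in shExosc10, and 42.44, 52.3, 75.18 and 157.9 CPM in shLuc. All 4 shDis3 libraries were above shLuc replicates 1 to 3 and above shExosc10 replicates 2 to 4, and shExosc10 replicate 1 and shLuc replicate 4 fell within the shDis3 range. On the log2 scale the fold change was 1.04 (SE 0.38) in shDis3 against shLuc and 1.04 (SE 0.38) in shDis3 against shExosc10. Its mean was 81.99 ± 36.46 CPM in shExosc10 and 81.97 ± 52.47 CPM in shLuc (SD, n = 4 each).

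Ctsg measured 113.9, 115.3, 89.35 and 146.3 CPM in shDis3, 138.6, 59.47, 65.09 and 44.96 CPM in shExosc10, and 28.03, 27.63, 32.67 and 107.1 CPM in shLuc. Every shDis3 and shExosc10 library exceeded shLuc replicates 1 to 3, and shLuc replicate 4 lay within the shDis3 range. The log2 fold changes were 1.25 (SE 0.44) in shDis3 against shLuc, 0.66 (SE 0.43) in shExosc10 against shLuc and 0.59 (SE 0.43) in shDis3 against shExosc10.

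Ms4a3, a membrane protein of granulocyte and monocyte progenitors, measured 37.37, 56.94, 25.94 and 35.79 CPM in shDis3, 59.83, 25.0, 27.86 and 20.35 CPM in shExosc10, and 10.51, 10.8, 12.73 and 32.01 CPM in shLuc. As for Ctsg, all 8 knockdown libraries were above shLuc replicates 1 to 3, and shExosc10 replicate 1 was the highest of the 12. The log2 fold changes were 1.24 (SE 0.41) in shDis3 against shLuc, 1.01 (SE 0.41) in shExosc10 against shLuc and 0.23 (SE 0.40) in shDis3 against shExosc10.

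**Figure D1:**
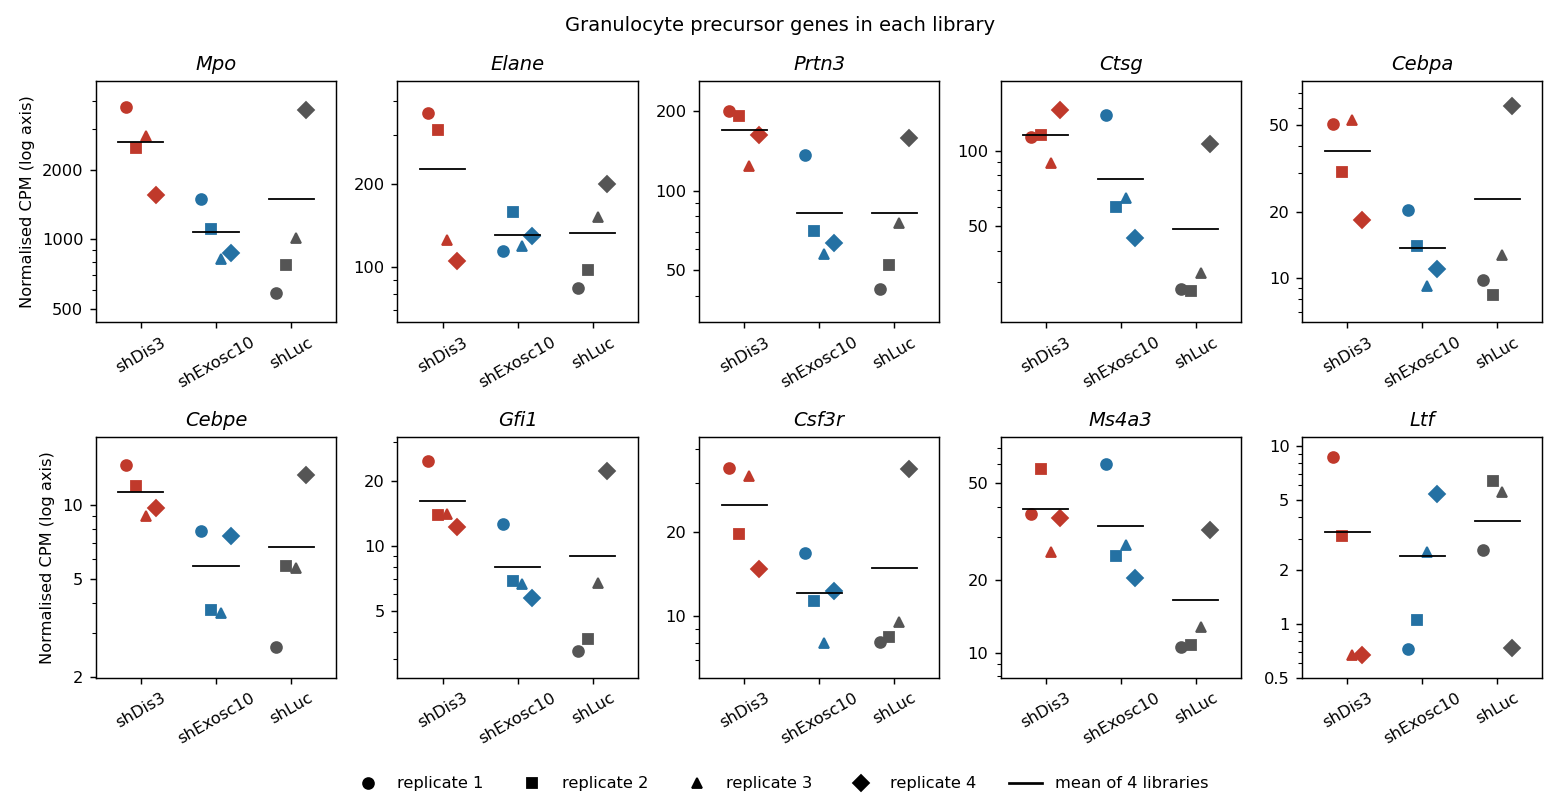
Normalised CPM of each of the 10 genes (log axis) in shDis3, shExosc10 and shLuc, with 1 point per library and a line at the mean of 4 libraries. In shLuc, replicate 4 (diamond) stands above the other 3 for every gene except Ltf, where it is the lowest at 0.737 CPM.

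Cebpa (chromosome 7, 35119293 to 35121928, plus strand) encodes the transcription factor that opens the granulocyte and monocyte path. It measured 50.64, 30.59, 52.97 and 18.36 CPM in shDis3, 20.42, 13.92, 9.141 and 10.96 CPM in shExosc10, and 9.766, 8.347, 12.73 and 61.11 CPM in shLuc. Its highest library of all was shLuc replicate 4, and its lowest was shLuc replicate 2. Its log2 fold change was 0.73 (SE 0.56) in shDis3 against shLuc, -0.76 (SE 0.56) in shExosc10 against shLuc and 1.49 (SE 0.57) in shDis3 against shExosc10.

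Gfi1 (chromosome 5, 107716657 to 107726036, minus strand) encodes a repressor that favours the neutrophil over the monocyte fate. It measured 24.55, 13.92, 14.0 and 12.18 CPM in shDis3, 12.65, 6.838, 6.639 and 5.724 CPM in shExosc10, and 3.273, 3.714, 6.706 and 22.09 CPM in shLuc. Apart from shExosc10 replicate 1 and shLuc replicate 4, every shExosc10 and shLuc library was below every shDis3 library. The log2 fold change was 0.85 (SE 0.51) in shDis3 against shLuc, -0.17 (SE 0.51) in shExosc10 against shLuc and 1.02 (SE 0.51) in shDis3 against shExosc10.

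Cebpe (chromosome 14, 54710360 to 54712174, minus strand) encodes the factor needed for secondary granules. It measured 14.59, 11.95, 9.051 and 9.698 CPM in shDis3, 7.843, 3.722, 3.636 and 7.437 CPM in shExosc10, and 2.64, 5.621, 5.52 and 13.27 CPM in shLuc. The shDis3 and shExosc10 libraries did not overlap, while the shLuc libraries reached from below the shExosc10 range into the shDis3 range. On the log2 scale the fold change was 0.74 (SE 0.41) in shDis3 against shLuc, -0.26 (SE 0.42) in shExosc10 against shLuc and 1.0 (SE 0.42) in shDis3 against shExosc10.

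Csf3r (chromosome 4, 126024550 to 126044440, plus strand), the receptor of G-CSF, measured 33.95, 19.72, 31.78 and 14.81 CPM in shDis3, 16.94, 11.37, 8.04 and 12.38 CPM in shExosc10, and 8.13, 8.415, 9.535 and 33.69 CPM in shLuc. In shLuc, replicates 1 to 3 were close together and replicate 4 was as high as the highest shDis3 library. Its log2 fold change was 0.74 (SE 0.44) in shDis3 against shLuc, -0.30 (SE 0.44) in shExosc10 against shLuc and 1.04 (SE 0.44) in shDis3 against shExosc10.

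Ltf (chromosome 9, 111019271 to 111042767, plus strand), which encodes lactoferrin of the secondary granule, was the rarest member and had another order of libraries. It measured 8.685, 3.107, 0.6651 and 0.6663 CPM in shDis3, 0.7199, 1.052, 2.535 and 5.382 CPM in shExosc10, and 2.587, 6.371, 5.52 and 0.7374 CPM in shLuc. The 4 lowest libraries were shDis3 replicates 3 and 4, shExosc10 replicate 1 and shLuc replicate 4, with 18 to 23 counts each, and the ratio of the highest to the lowest library was 13.1, against 4.22 to 7.5 for the other 9 genes. The log2 fold change was -0.22 (SE 0.84) in shDis3 against shLuc, -0.66 (SE 0.85) in shExosc10 against shLuc and 0.44 (SE 0.85) in shDis3 against shExosc10, so the groups overlapped in each comparison.

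In shDis3 against shLuc, 9 of the 10 genes had a higher fitted level in shDis3, and Ltf was the exception. The median log2 fold change of the 10 was 0.79, beside 0.02 over all 17650 genes tested, of which 52.6% were positive. No member passed edgeR's quasi-likelihood test with Benjamini-Hochberg adjustment over all genes, and neither did any other gene (0% called). Dis3 itself missed the threshold in that test, at a log2 fold change of -1.78 (SE 0.24, adjusted p = 0.0581). Since the fit did not call even the targeted gene, the lack of calls does not show that the members were unchanged. Without adjustment, 719 genes (4.07%) lay under the threshold of 0.05, among them the members Ms4a3, Ctsg and Prtn3, and DESeq2 called 33 genes and no member. In no member were the 4 shDis3 libraries all above the 4 shLuc libraries, an arrangement found in 0.907% of genes.

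The outcome changed with a single control library, shLuc replicate 4. It was singled out here after its values were seen, as the highest shLuc library for every member except Ltf. The p-values and calls of every fit without it take no account of that choice. Without shLuc replicate 4, the fit called 7 members higher in shDis3, against 0.531% of the 19777 genes then tested. Ctsg rose by 1.98 (SE 0.34, adjusted p = 0.0211), Cebpa by 1.89 (SE 0.37, adjusted p = 0.0359), Gfi1 by 1.82 (SE 0.37, adjusted p = 0.039) and Ms4a3 by 1.77 (SE 0.36, adjusted p = 0.0394) on the log2 scale in edgeR's quasi-likelihood test. Mpo rose by 1.75 (SE 0.31, adjusted p = 0.0242), Prtn3 by 1.58 (SE 0.32, adjusted p = 0.039) and Csf3r by 1.53 (SE 0.31, adjusted p = 0.041) in the same test. Cebpe at 1.3 (SE 0.36), Elane at 1.02 (SE 0.37) and Ltf at -0.56 (SE 0.79) were not called.

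Without both look-alike pairs, which leaves 2 shDis3, 3 shExosc10 and 3 shLuc libraries, 9 members were called higher in shDis3 than in shLuc, against 2.23% of genes. Their adjusted p-values from edgeR's quasi-likelihood test were 1.51e-05 to 0.0138, and their log2 fold changes 1.51 for Cebpe to 2.06 for Gfi1. The libraries left out were picked from these same data, shLuc replicate 4 among them, so these p-values take no account of that choice. Ltf was not called, at 0.29 (SE 0.51). Without the pair of shDis3 replicate 3 and shLuc replicate 4 alone, 2 members (Ctsg and Ms4a3) were called, against 0.118% of genes. With all 12 libraries but no filter on low counts, edgeR called 3 members higher (Prtn3, Ctsg and Ms4a3), against 0.0894% of the 41382 genes then tested. That total includes genes with counts too low for the filter, which every member passed, so the share is not one of genes like the members.

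Within the pairs the members were compared between the single libraries. In shDis3 replicate 3 over shLuc replicate 4, the log2 ratios of CPM of all 10 genes were negative, between -0.68 for Elane and -0.08 for Csf3r, with a median of -0.32, while 7974 of the 15949 tested genes with a count in either library were negative. In shDis3 replicate 4 over shExosc10 replicate 1, 6 of 10 were negative and 4 positive (Cebpe, Prtn3, Ctsg and Mpo), with a median of -0.08, beside 49.5% negative over all genes. These are ratios of single libraries and have no test.

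**Figure D2:**
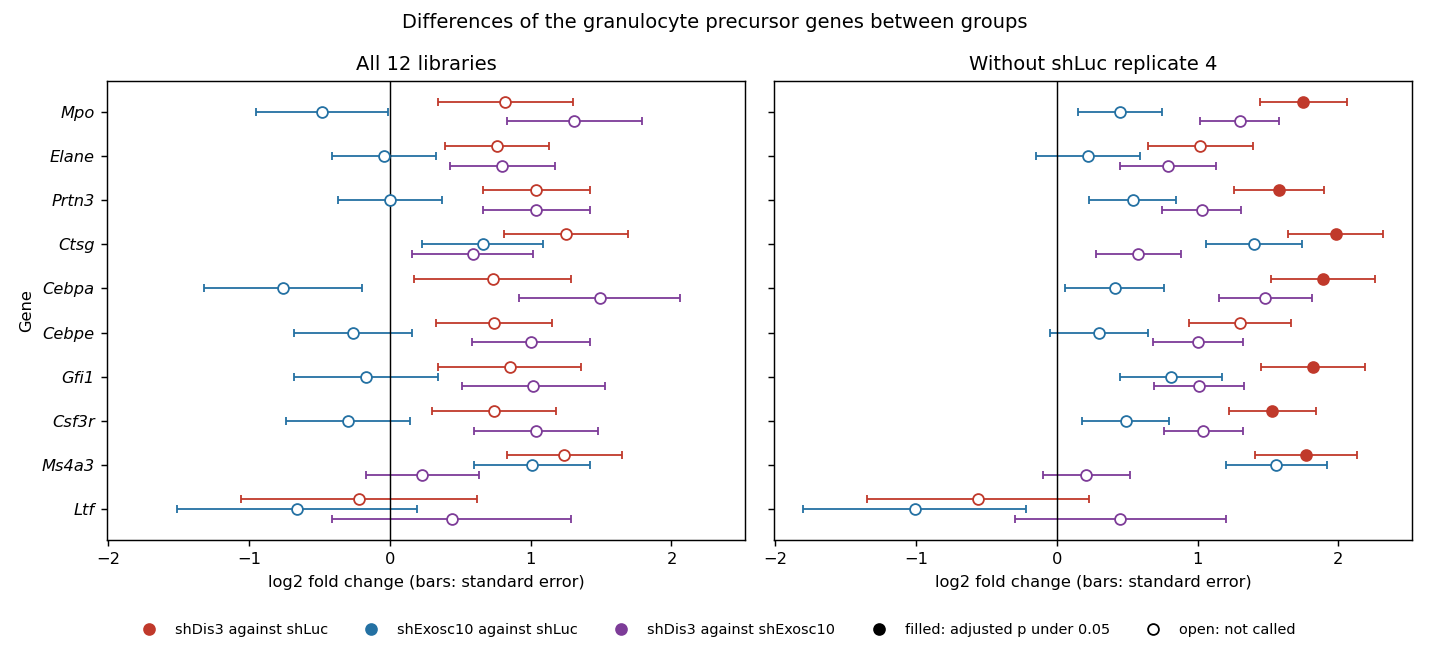
Log2 fold change of each gene in 3 comparisons, with bars of 1 standard error, from all 12 libraries (left) and without shLuc replicate 4 (right). That library was singled out after its values were seen. No point is filled on the left, and on the right 7 genes pass an adjusted p of 0.05 in shDis3 against shLuc, with Ctsg at 1.98 the farthest from 0.

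In shExosc10 against shLuc the members divided. Ms4a3 and Ctsg had positive log2 fold changes of 1.01 and 0.66, and the other 8 were at or below 0, with a median over the 10 of -0.22 beside 0.02 over all genes, of which 52.2% were positive. None was called. The edgeR quasi-likelihood test called 1 gene of 17650 (0.00567%), Exosc10 itself, and DESeq2 called 8 genes and no member. Without adjustment, 371 genes (2.1%) lay under 0.05, with Ms4a3 as the single member. The direction again depended on shLuc replicate 4: without it the median was 0.47 and 9 of 10 were positive, with Ms4a3 at 1.56, Ctsg at 1.4 and Gfi1 at 0.81, and none was called.

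In shDis3 against shExosc10, a comparison without the control group, all 10 log2 fold changes were positive, with a median of 1.01 beside 0.01 over all genes, of which 51.2% were positive. None was called by edgeR's quasi-likelihood test with Benjamini-Hochberg adjustment (adjusted p of 0.764 to 1.0), which called 2 genes (0.0113%), Exosc10 and Dis3, while DESeq2 called 72 genes and no member. An unadjusted p under 0.05 was reached by 6 members (Prtn3, Mpo, Cebpa, Cebpe, Csf3r and Elane), against 5.98% of genes in either direction. The 4 libraries of shDis3 lay entirely above those of shExosc10 for Mpo and Cebpe, 2 of 10, against 1.91% of genes. Without both look-alike pairs 9 members, all but Ltf, were called higher in shDis3, against 1.32% of genes, with log2 fold changes from 0.93 for Ms4a3 to 1.84 for Cebpa. With all libraries but no filter, 4 members were called (Mpo, Prtn3, Cebpa and Csf3r), against 0.196% of 41382 genes, which include those too low for the filter. The comparisons of each knockdown with shLuc share the same controls, and each shares its knockdown libraries with this one.

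The proportions between the granule transcripts were not constant. Elane TPM divided by Prtn3 TPM was 1.74, 1.55, 0.949 and 0.615 in shDis3 replicates 1 to 4, 0.797, 2.21, 2.05 and 2.00 in shExosc10, and 1.99, 1.80, 2.02 and 1.22 in shLuc. The 4 lowest ratios were in the 4 libraries of the look-alike pairs, and the other 8 lay between 1.55 and 2.21. As a percent of Mpo TPM, Elane was at 13.6% to 23.4% in those 4 libraries and 29.5% to 46.6% in the others. Ctsg was 27.9% of Mpo TPM in shDis3 replicate 4 and 27.7% in shExosc10 replicate 1, its highest shares, and 8.96% to 24.6% elsewhere. The same 4 libraries had counts in the fewest genes, and the part of that in the ratios was not tested.

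**Figure D3:**
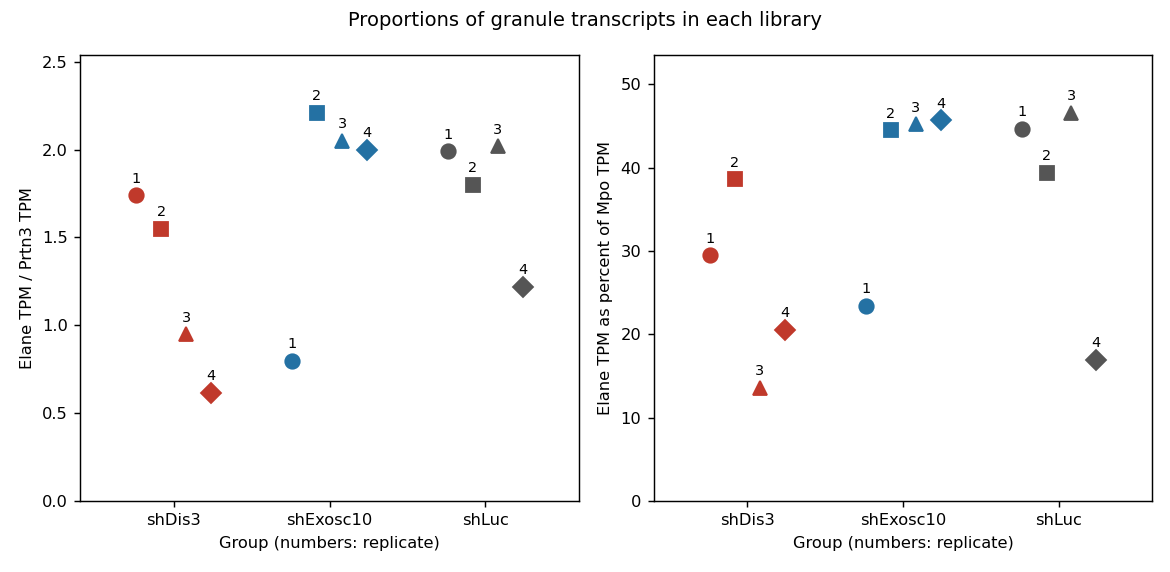
Elane TPM divided by Prtn3 TPM (left) and Elane TPM as a percent of Mpo TPM (right), with 1 numbered point per library in shDis3, shExosc10 and shLuc. shDis3 replicates 3 and 4, shExosc10 replicate 1 and shLuc replicate 4 lie lowest in both panels, at ratios of 0.615 to 1.22.

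Likeness between profiles was measured as the root mean square difference of log2 CPM, centred on the mean of the 12 libraries. Among the members, Cebpa and Mpo were the closest pair at 0.23, followed by Gfi1 and Mpo at 0.24 and Csf3r and Mpo at 0.25. Ms4a3 was closest to Ctsg, at 0.29. Ltf differed from every other member by 1.08 to 1.69. Among 9466 genes that averaged 5 CPM or more, the 5 nearest to Mpo were Mtus1 (0.22), Cebpa, Cyfip2, Gfi1 and Tnfrsf1a. Those nearest to Prtn3 were Hp (0.20), the haptoglobin gene, Cst7, Lbp, Nebl and Ifitm2, and those nearest to Ctsg were Serpinb1a (0.20), an inhibitor of neutrophil proteases, Plac8, Anxa3, F13a1 and Ms4a3. Those nearest to Elane were S100a11 (0.26), Serpine2, Grn, Sun2 and Cebpd, and none of these 5 is a member, as for the 5 nearest to Prtn3. All 12 points share library and group, so this is a description.

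Other early granulocyte and granule genes had mostly positive fold changes too. Of 18 such genes 16 were positive in shDis3 against shLuc, with a median of 0.80, and none was called. Plac8 averaged 82.58 ± 17.96 CPM in shDis3 and 39.71 ± 30.3 CPM in shLuc (SD, n = 4 each). Srgn, the granule proteoglycan serglycin, averaged 225.0 ± 38.31 CPM in shDis3 and 184.8 ± 36.85 CPM in shLuc. Cd63, a lysosomal membrane protein, averaged 65.47 ± 12.76 CPM in shDis3 and 40.7 ± 33.32 CPM in shLuc, and Lyz2, lysozyme, 78.36 ± 15.64 CPM in shDis3 and 80.26 ± 11.35 CPM in shLuc. Without shLuc replicate 4, edgeR called 4 of the 18 higher in shDis3, among them Clec12a, Hp and Serpinb1a, against 0.531% of all genes. Summed TPM of the list was 818.9 to 1103 in shDis3, 529.1 to 1087 in shExosc10 and 298.5 to 1414 in shLuc.

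Genes of later neutrophils often followed the order of libraries seen for Ltf. For 9 of the 15 that passed the filter (of 20), the 4 lowest libraries were shDis3 replicates 3 and 4, shExosc10 replicate 1 and shLuc replicate 4, as for Ltf alone among the members. The same was found for 5.59% of all genes tested. Among the 9, Cd177 had 0 to 22 counts per library and Padi4 0 to 45, so their order is uncertain. Ngp, a secondary granule gene named after its values were seen, measured 48.61, 35.19, 3.672 and 3.22 CPM in shDis3 replicates 1 to 4, 2.311, 24.03, 20.92 and 61.89 CPM in shExosc10, and 32.99, 57.0, 57.71 and 3.587 CPM in shLuc. Its other 8 libraries were at 20.92 CPM or more. S100a9, a subunit of calprotectin, averaged 157.5 ± 126.8 CPM in shDis3, 135.4 ± 60.49 CPM in shExosc10 and 141.4 ± 49.02 CPM in shLuc, and its partner S100a8 averaged 124.5 ± 113.7 CPM in shDis3, 108.3 ± 29.16 CPM in shExosc10 and 110.7 ± 45.75 CPM in shLuc.

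Lcn2, lipocalin 2, averaged 38.69 ± 30.13 CPM in shDis3, 23.66 ± 9.155 CPM in shExosc10 and 26.96 ± 9.681 CPM in shLuc. Anxa1, annexin A1, averaged 85.46 ± 22.67 CPM in shDis3, 58.22 ± 27.5 CPM in shExosc10 and 45.86 ± 21.14 CPM in shLuc. Of the 15 later genes 11 were positive in shDis3 against shLuc, with a median of 0.17, and none was called, with all libraries or without shLuc replicate 4. Mmp8, a collagenase also named after its values were seen, did not follow Ltf: it measured 12.95 to 20.53 CPM in shDis3 and 16.96 CPM in shLuc replicate 4, against 3.782 to 11.88 CPM in shLuc replicates 1 to 3. Nor did Cxcr2, also named after its values were seen, or Anxa1. In shDis3 replicates 3 and 4, shExosc10 replicate 1 and shLuc replicate 4, log2 CPM of Cxcr2 minus its mean was 0.64, 0.30, 0.28 and 0.79. That of Anxa1 was -0.05, 0.54, 0.76 and 0.41.

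**Figure D4:**
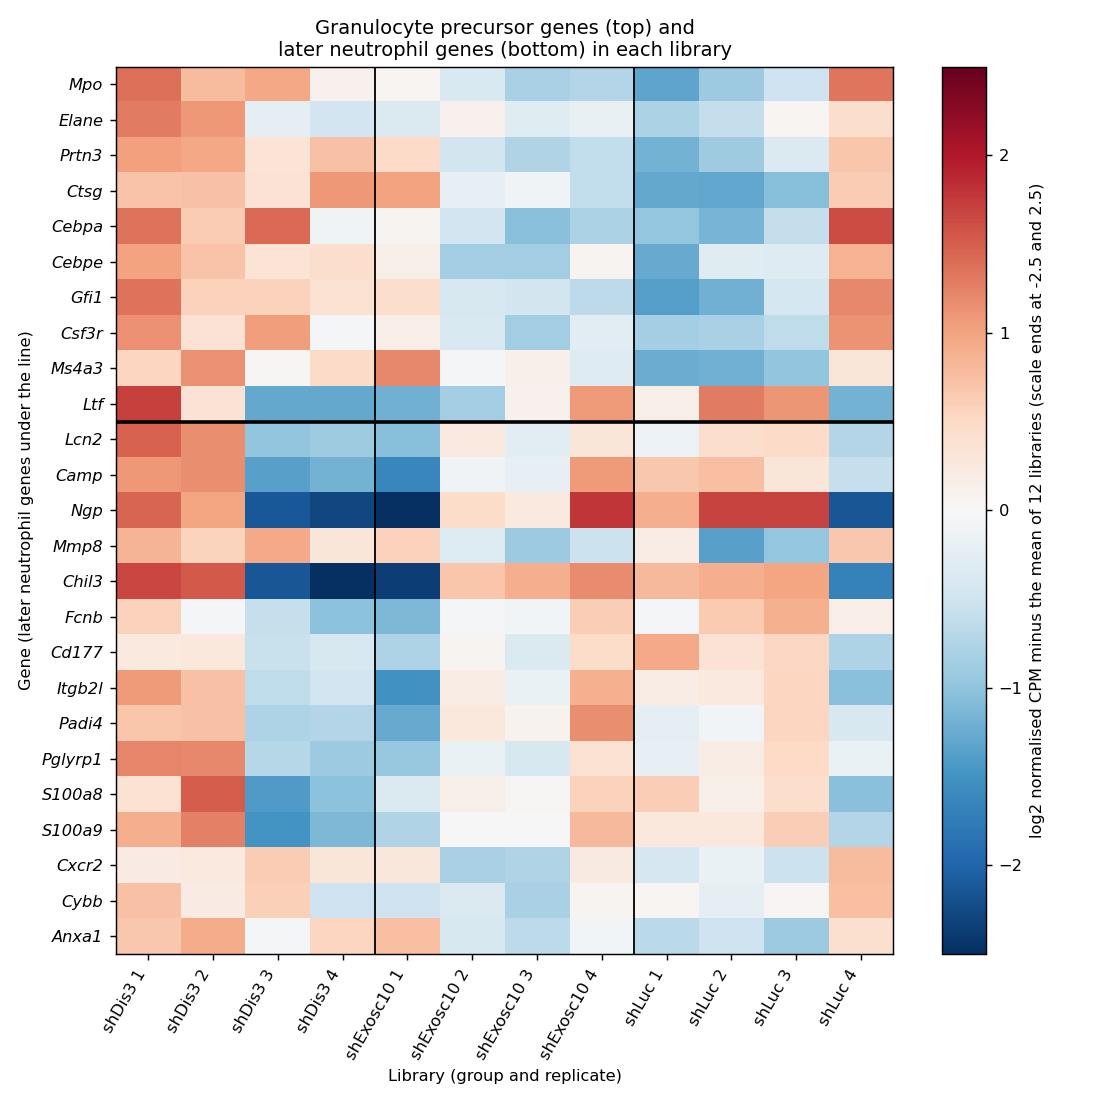
Log2 normalised CPM minus the mean of 12 libraries for the 10 genes (top) and the 15 later neutrophil genes that passed the filter (bottom), by library in the order shDis3, shExosc10, shLuc. Ltf and most later genes are low in shDis3 replicates 3 and 4, shExosc10 replicate 1 and shLuc replicate 4, where Ngp lies at -2.68 to -2.11, while Mpo in shLuc replicate 4 is at 1.33.

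In shDis3 against shLuc, other myeloid regulators had medians nearer to 0 than that of the members, while in shDis3 against shExosc10 the median of the cytokine receptors was close to it. Of 14 other myeloid transcription factors 8 were positive in shDis3 against shLuc, with a median of 0.01 and no call. Myb averaged 462.7 ± 118.4 CPM in shDis3 and 359.3 ± 172.5 CPM in shLuc, and Cebpb, a relative of Cebpa, 49.19 ± 11.05 CPM in shDis3 and 48.74 ± 8.376 CPM in shLuc. Gfi1b, the erythroid relative of Gfi1, averaged 85.06 ± 22.7 CPM in shDis3 and 89.66 ± 15.75 CPM in shLuc, and Zeb2 averaged 111.3 ± 31.52 CPM in shDis3 and 115.4 ± 32.78 CPM in shLuc. In shDis3 against shExosc10, 11 of these 14 were positive, with a median of 0.34. Of 10 other myeloid cytokine receptors 9 were positive in shDis3 against shLuc, with a median of 0.43 and no call. In shDis3 against shExosc10 all 10 receptors were positive, with a median of 0.95 beside 1.01 for the members, and 2 of them had groups that did not overlap, as did 2 members. Csf2rb, the shared beta chain of several receptors, averaged 130.9 ± 46.52 CPM in shDis3 and 135.2 ± 73.88 CPM in shLuc, and Csf2ra, the GM-CSF receptor alpha chain, 11.99 ± 5.726 CPM in shDis3 and 9.437 ± 4.593 CPM in shLuc. Ifngr1 averaged 72.25 ± 19.12 CPM in shDis3 and 59.42 ± 26.91 CPM in shLuc, and Tnfrsf1a 19.26 ± 5.94 CPM in shDis3 and 13.47 ± 11.03 CPM in shLuc.

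Markers of some other cell types lay higher in the same libraries as the members, and their part in the results was not tested. The 10 megakaryocyte markers were all positive in shDis3 against shLuc (median 0.80, none called), and their summed TPM was 221.8 to 286.7 in shDis3, 96.31 to 232.5 in shExosc10, and 32.35, 63.34, 77.07 and 314.1 in shLuc replicates 1 to 4. Pf4, platelet factor 4, was the most abundant of them, with 71.46 ± 21.94 CPM in shDis3 and 26.19 ± 18.94 CPM in shLuc. Without shLuc replicate 4, edgeR called 4 of these 10 higher in shDis3, against 0.531% of all genes. Macrophage and monocyte markers summed to 11.48 to 30.15 TPM in shDis3, 6.44 to 13.47 in shExosc10 and 3.21 to 24.88 in shLuc. Of their 13 genes 9 passed the filter, and 7 of these were positive and 2 negative in shDis3 against shLuc. The 3 of highest mean TPM were Csf1r, Cd68 and Ccr2, with 61 to 650, 36 to 152 and 45 to 271 counts per library. Their log2 fold changes were 0.85, 0.68 and 0.85. The tissue macrophage genes C1qa, C1qb and C1qc had at most 4, 9 and 24 counts in a library.

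Mast cell and basophil markers summed to 55.38 to 134.8 TPM in shDis3, 42.51 to 130.5 in shExosc10 and 30.96 to 219.6 in shLuc, with 4 of 6 tested genes positive. Hdc was the most abundant of them in every library, and Fcer1a was at 0 in every library. Eosinophil markers summed to 19.65 to 46.04 TPM in shDis3, 6.69 to 41.1 in shExosc10 and 7.65 to 106.7 in shLuc, with 4 of 8 positive. Stem and early progenitor markers were positive in 8 of 10, with a median of 0.40, although Kit averaged 318.4 ± 66.06 CPM in shDis3 and 492.5 ± 92.1 CPM in shLuc. Of 16 erythroid markers 7 were positive, with a median of -0.07. Lymphoid markers summed to 0.07 to 3.54 TPM over all libraries and hepatocyte markers to 5.66 to 22.13 TPM. Of these 8 lists only the megakaryocyte and eosinophil lists (4 genes and Siglecf) had genes called higher without shLuc replicate 4, and Tfrc of the erythroid list was called lower.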

How the data were processed

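Members and gene lists were chosen with earlier results of these data known. RNA was sequenced from 12 libraries in 3 groups of 4, set by the sample titles. Per the labels' protocols, libraries were made from sorted cells with a stranded total RNA kit. STAR 2.5.3a, RSEM 1.3.0 and build GRCm38 (mm10) are named in the submitters' processing notes, and the annotation release and strand setting are not stated there. The values the authors deposited are, per the file headers, RSEM expected counts and TPM for each gene. Counts of genes that overlap others or share sequence are uncertain.

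Of 55385 identifiers, 55144 matched GENCODE M21, which gave symbols, coordinates and sequences. After rounding, expected counts of all 12 libraries went into edgeR 4.0.16 (R 4.3.3) with TMM factors, edgeR's own low-count filter and its quasi-likelihood F-test. This left 17650 genes and a biological coefficient of variation of 60%. P-values were adjusted over all genes by Benjamini-Hochberg, with a threshold of 0.05. Normalised CPM, scaled by TMM, compare libraries, and TPM compares genes. Profiles were compared as log2 of CPM plus 0.5. Between libraries, chi-square per degree of freedom was 13.1 or more, so none was counted as the same library sequenced again. It cannot tell whether separate libraries came from the same RNA or culture, since these would also differ by more than sampling. Named genes were all members, any list gene past the threshold in edgeR's fit of all 12 libraries, and the 5 nearest profiles of Mpo, Elane, Prtn3 and Ctsg. The 4 of highest mean TPM were named from the early granulocyte, later neutrophil, transcription factor and cytokine receptor lists. From the lists of other cell types only some such genes were named. Others were named after their values were seen. A stretch is 50 bases of a transcript, and it was counted as shared in either orientation, so antisense overlap is included. Alternatives were RLE factors, no filter, DESeq2 1.42.0, limma 3.58.1 on log2(TPM + 1) and log2(TPM + 0.1) for genes with a mean of at least 1 TPM, fewer libraries and a replicate block. The result of 1 listed gene is not reported here.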

Additional observations from a re-analysis of the deposited data

Results flagged for a closer look

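Within the shLuc group, 3 members had a highest library far from the other 3. The gap between the highest library and its neighbour, as a share of the range of log2 CPM in the group, was 0.88 for Ctsg (28.03, 27.63, 32.67 and 107.1 CPM in replicates 1 to 4), 0.89 for Csf3r (8.13, 8.415, 9.535 and 33.69 CPM) and 0.83 for Ms4a3 (10.51, 10.8, 12.73 and 32.01 CPM), above Dixon's 95% critical value for 4 samples. In each it was replicate 4. In no member did a shDis3 or shExosc10 group pass that value. In all 30 groups were examined, and chance flags about 1 group in 20. The members are not independent here, since each value of shLuc replicate 4 comes from the same library.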

How the results depend on the processing

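Among 660 refitted log2 fold changes of members, 568 kept their direction and their side of the threshold, 34 passed the threshold in addition and 58 changed direction, and causes were not tested.

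In shDis3 against shLuc, where no gene was called with all libraries, RLE factors called 1 gene, no filter 123, DESeq2 33, and limma on log2(TPM + 1) and on log2(TPM + 0.1) 1 each. No filter called 3 members, and the + 0.1 fit gave a members' median of 1.38, against 0.79 with all libraries in edgeR. Without shDis3 3 and shLuc 4 there were 37 genes, 2 members and a median of 1.69. Without shDis3 4 and shExosc10 1 there were 2 genes, and without both pairs 724 genes, 9 members and a median of 1.85. Leaving out each library in turn gave 0 to 146 genes, 0 to 7 members and medians of 0.57 to 1.66, the upper values without shLuc replicate 4.

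In shExosc10 against shLuc, 1 gene was called with all libraries, no filter called 10, DESeq2 8, and both limma fits 0. Without shDis3 3 and shLuc 4 there were 2 genes and a median of 0.47, and without both pairs 7 genes. Each library left out in turn gave 0 to 2 genes, with 0 without shExosc10 replicate 2 or 3 and 2 without shLuc replicate 4, and medians of -0.46 to 0.47. In shDis3 against shExosc10, 2 genes were called with all libraries, no filter called 179 genes and 4 members, DESeq2 72 genes, both limma fits 1 and the fit on 2 groups 1. Without both pairs there were 466 genes and 9 members, and each library left out gave 1 to 2 genes, with 1 without shDis3 replicate 1 or 3 or shExosc10 replicate 3.

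The values that changed direction were log2 fold changes. Ltf in shDis3 against shLuc was at 0.10 and 0.09 in the limma fits with + 1 and + 0.1, 0.13 without shDis3 4 and shExosc10 1, 0.29 without both pairs, and -1.41 to 0.15 with each library left out. In shExosc10 against shLuc, Prtn3 was at 0.00 with RLE factors, 0.01 without the filter, 0.00 in DESeq2 and 0.01 in the fit on 2 groups. In the limma fit with + 1, Elane was at 0.09, Prtn3 0.16, Gfi1 0.14 and Csf3r 0.02, and with + 0.1 Elane 0.09, Prtn3 0.16, Gfi1 0.35, Csf3r 0.09 and Ltf 0.01. Without shDis3 3 and shLuc 4, Mpo was at 0.45, Elane 0.23, Prtn3 0.54, Cebpa 0.41, Cebpe 0.30, Gfi1 0.81 and Csf3r 0.49, and without the other pair Elane was at 0.03. Without both pairs, Mpo was at 0.23, Elane 0.27, Prtn3 0.16, Cebpa 0.12, Cebpe 0.07, Gfi1 0.48 and Csf3r 0.26. With each library left out the ranges were -0.73 to 0.45 for Mpo, -0.19 to 0.22 for Elane, -0.35 to 0.54 for Prtn3, -1.02 to 0.41 for Cebpa, -0.51 to 0.30 for Cebpe, -0.48 to 0.81 for Gfi1 and -0.49 to 0.49 for Csf3r. In shDis3 against shExosc10 they were -0.75 to 1.18 for Ltf and -0.01 to 0.66 for Ms4a3.

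The labels do not say whether replicate numbers pair the libraries. Deviations of same-numbered libraries from their group means correlated at -0.47 to 0.63, which does not settle it, since those means include the look-alike libraries. With the number as a replicate block, the fit called 0, 1 and 1 genes in shDis3 against shLuc, shExosc10 against shLuc and shDis3 against shExosc10, and no member. In it Prtn3 was at 0.02 and Gfi1 at 0.02 in shExosc10 against shLuc, and Ltf at -0.04 in shDis3 against shExosc10. Ltf had 18 to 231 counts per library, which limits its precision.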
